A study of Homo sapiens with 4 samples.

Results

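The Krüppel-like factors (KLF) other than KLF1 that are described here are 10 genes chosen by name, KLF2, KLF3, KLF4, KLF6, KLF7, KLF9, KLF10, KLF11, KLF13 and KLF16. They were found among 58735 genes by their Ensembl identifiers through GENCODE release 44, and the table holds 18 KLF genes in all. RNA-seq had been carried out on 4 libraries of cells labelled NB4, a human line of acute promyelocytic leukemia. Of these, 2 came from cells without GNE-987 (control) and 2 from cells given GNE-987, at 25 nM for 24 h by the study's methods. GNE-987 is a degrader, a compound with one end for its target and another for the VHL ubiquitin ligase. No genotype or transgene is given for either group. The labels do not say whether the 2 libraries of a group came from separate cultures, so P values measure the spread between these libraries, which may be technical.

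KLF proteins carry 3 zinc fingers at their C-terminal end and bind GC boxes and CACCC boxes in promoters and enhancers. The rest of the protein differs between members and decides which partner is recruited. KLF2, KLF4, KLF6 and KLF7 mostly activate, KLF3 represses through CtBP, and KLF9, KLF10, KLF11, KLF13 and KLF16 bind the Sin3 corepressor. In blood cells KLF1 drives the erythroid program, KLF3 is one of its targets, KLF4 accompanies monocyte differentiation, and KLF2 keeps lymphocytes quiescent. KLF6 and KLF10 are early-response genes that many stimuli induce.

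Levels are FPKM, in which fragments are divided by the length of the gene and by the size of the library, which allows genes to be set beside each other within a library. Differences are log2 fold changes of GNE-987 against control on log2(FPKM + 0.1), with the standard error (SE) of the fit by limma, and they understate the change of low genes. The 16668 genes whose 4 libraries averaged 0.5 FPKM or more were tested, and a gene was called where the unadjusted P value was under 0.05 and the fold change over 2 or under 0.5. The Benjamini-Hochberg adjustment covers all of these genes. Reads on genes, worked back from the smallest steps in FPKM, were between 12314715 and 12817511 in the GNE-987 libraries and between 19101284 and 19310158 in the control libraries, so the GNE-987 values of low genes are the less precise.

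GNE-987-treated cells had much more KLF6 and KLF10 RNA and much less KLF13 RNA than control cells. KLF6 rose 55.4-fold and KLF10 rose 6.64-fold in mean FPKM, and KLF13 fell 5.09-fold. KLF2, KLF3, KLF9, KLF11 and KLF16 were tested and not called, and KLF4 and KLF7 were too low to be tested. Of the 8 members tested, 2 were higher and 1 lower, where 33.6% of all tested genes were called higher and 24.9% lower, so the number of calls does not set the members apart from other genes. Scaling the libraries to GAPDH turned that split over all genes from 5602 higher and 4148 lower to 3031 and 9738, and left 1 member higher and 6 lower. The median log2 fold change of the tested members was 0.67, against 0.17 over all tested genes. In bulk RNA a smaller number of cells of one kind and less RNA per cell cannot be told apart.

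**Figure D1:**
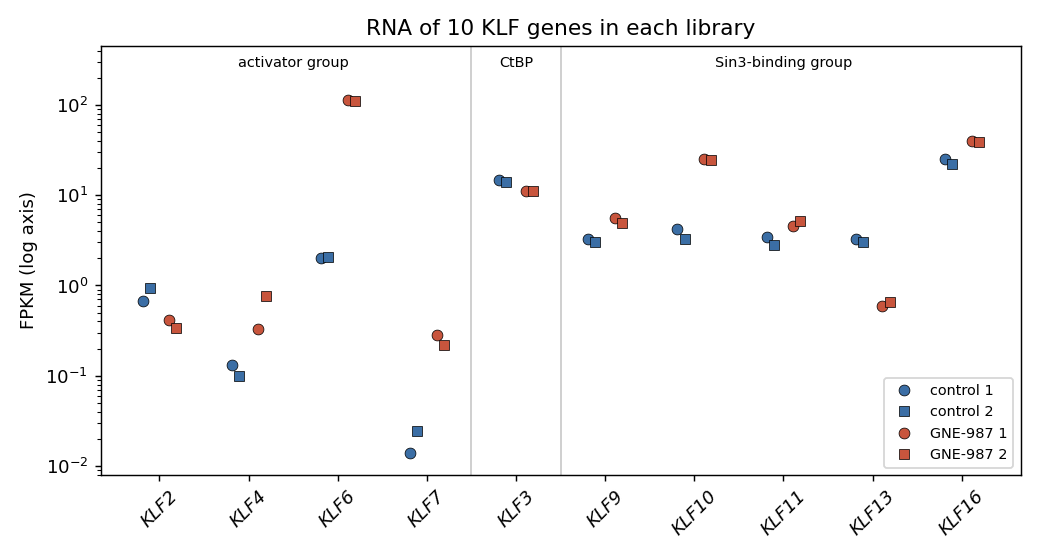
FPKM (log axis) of the 10 KLF genes in each library, grouped by the partner their proteins are known for; circles are replicate 1 and squares replicate 2, with control in blue and GNE-987 in red. The KLF6 points stand near 2 FPKM in control and above 100 FPKM with GNE-987, the KLF10 pairs and the KLF13 pairs are also wide apart, as are the KLF7 and KLF4 pairs at levels under 1 FPKM, and KLF2, KLF3, KLF9, KLF11 and KLF16 lie closer together.

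In control cells the order of the levels began with KLF16, at 25.1 and 22.0 FPKM, and KLF3, at 14.6 and 13.9 FPKM. KLF9, KLF10, KLF11 and KLF13 followed between 2.84 and 4.23 FPKM, with libraries that overlapped, so their order is not resolved. KLF6 came next near 2 FPKM, then KLF2 between 0.667 and 0.941 FPKM, KLF4 at 0.131 and 0.0988 FPKM and KLF7 at 0.0141 and 0.0244 FPKM. With GNE-987 the order was KLF6, KLF16, KLF10 and KLF3, each clear of the next in both libraries. KLF9 and KLF11 overlapped between 4.61 and 5.52 FPKM, KLF4 overlapped with KLF13 and KLF2 between 0.327 and 0.774 FPKM, and KLF7 was lowest at 0.284 and 0.220 FPKM. KLF6 thus went from the seventh place of the 10 to the first.

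KLF6 encodes an activator and growth suppressor that is induced early after many stimuli. It was at 1.995 and 2.047 FPKM in control and reached 114.2 and 109.8 FPKM with GNE-987. Both GNE-987 libraries stood far above both control libraries. These values rest on 282 and 278 reads in control and 5860 and 5952 reads with GNE-987, so counting error is small at both ends. The group means were 2.02 ± 0.0368 FPKM (SD, n = 2) for control and 112.0 ± 3.06 FPKM (SD, n = 2) for GNE-987, and the log2 fold change was 5.72 (SE 0.053, adjusted P = 8.96e-05, limma). Of all tested genes, 528 (3.17%) had a higher log2 fold change. KLF6 (ENSG00000067082) is on chromosome 10 of GRCh38, minus strand, from 3775996 to 3785281, with 4 exons in its canonical transcript. Its rise was also seen against genes of the same library, as the ratio of KLF6 to KLF3 went from 0.137 and 0.147 to 10.2 and 9.91, and the ratio of KLF6 to GAPDH rose 15.3-fold.

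Stretches upstream of 3 members are shown here, those of KLF6 and KLF13 because these genes were called in opposite directions, and that of KLF2 because genes of its best known inducing pathway are described below. They are from RefSeq on GRCh38.p14, where 8 of the 10 members had an entry and KLF3 and KLF10 had none. Capitals mark 5 motifs, searched on both strands. The GC box is GGGCGG. The CACCC box is named by its letters. The E-box searched for is CACGTG. The core of a cyclic AMP response element (CRE) is TGACGT. The MEF2 core is CTANNNNTAG. KLF6 is chr10:3785282-3785459, minus strand. KLF13 is chr15:31326585-31326834, plus strand. KLF2 is chr19:16324576-16324825, plus strand.
KLF6: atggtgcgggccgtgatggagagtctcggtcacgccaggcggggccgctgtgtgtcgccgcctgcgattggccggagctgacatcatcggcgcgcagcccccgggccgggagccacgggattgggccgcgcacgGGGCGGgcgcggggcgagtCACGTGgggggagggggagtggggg
KLF13: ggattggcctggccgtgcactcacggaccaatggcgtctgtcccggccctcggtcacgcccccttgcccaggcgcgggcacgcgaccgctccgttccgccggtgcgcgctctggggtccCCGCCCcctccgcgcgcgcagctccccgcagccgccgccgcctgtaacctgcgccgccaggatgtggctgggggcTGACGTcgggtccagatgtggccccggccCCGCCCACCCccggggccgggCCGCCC
KLF2: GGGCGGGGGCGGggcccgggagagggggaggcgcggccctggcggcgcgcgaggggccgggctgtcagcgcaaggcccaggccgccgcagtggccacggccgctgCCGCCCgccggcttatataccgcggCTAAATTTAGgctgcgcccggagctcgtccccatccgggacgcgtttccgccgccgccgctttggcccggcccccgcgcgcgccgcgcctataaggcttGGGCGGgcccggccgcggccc
Counted back from the base before the RefSeq start, the KLF6 E-box is at bases 97 to 92 and the CRE core of KLF13 at bases 56 to 51. A second GC box of KLF6, at bases 61 to 56, lies outside the stretch shown. In KLF13 a GC box and a CACCC box overlap by a base. The stretch of KLF2 opens with a pair of GC boxes, and its MEF2 core is at bases 120 to 111. These matches are letters in a window and not measured binding.

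Over the 250 bases before the start, 7 of the 8 member genes with an entry held a GC box, which 42.6% of all 35116 such windows held. A CACCC box was present for 3 of the 8, against 54.7% of all windows. An E-box was found for KLF4, KLF6, KLF7 and KLF11 (6.3% of all windows), a CRE core for KLF11 and KLF13 (7.1%) and a MEF2 core for KLF2 and KLF11 (2.4%). None of the member windows held TATAAA, which 10.7% of all windows held. KLF7 has 4 windows and KLF11 has 2, so these genes had more bases searched. The GC content was 72.4% for KLF6, 78.8% for KLF13, 80.0% for KLF2 and 86.4% for KLF16, against a median of 58.0% over all windows, while KLF9 was at 32.4% and 2 of the 4 KLF7 windows were at 41.6% and 43.2%.

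KLF2, which holds lymphocytes and endothelial cells in a quiescent state, was at 0.667 and 0.941 FPKM in control and at 0.415 and 0.337 FPKM with GNE-987. Both GNE-987 libraries were below both control libraries, on 7 and 6 reads against 31 and 42. The log2 fold change was -0.91 (SE 0.28, adjusted P = 0.0442, limma), short of the fold threshold, so KLF2 was not called. KLF2 passed the filter only through its control libraries, so it had to be lower with GNE-987 to be tested. The adjusted P value from limma was between 0.083 and 0.193 with each library left out in turn, 0.101 with a replicate block and 0.131 without the filter. KLF2 (ENSG00000127528) lies on the plus strand of chromosome 19 from 16324826 to 16328685 and has 3 exons.

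KLF4, a factor of monocytes and of pluripotent cells, was at 0.131 and 0.0988 FPKM in control and at 0.327 and 0.774 FPKM in the treated libraries. These are 11 and 8 reads against 10 and 25, and the GNE-987 libraries differed from each other by more than the control libraries did. KLF7, an activator known from neurons and fat cells, was at 0.0141 and 0.0244 FPKM in control, and at 0.284 and 0.220 FPKM in the GNE-987 libraries, on 3 and 5 reads against 22 and 18. Both genes lay higher in the GNE-987 libraries without overlap in the deposited values, but their means were under the filter of 0.5 FPKM. With scaling to GAPDH or TPM the KLF4 groups overlap, so its direction depends on the scaling. How many of all genes lacked overlap was not counted. Without the filter their log2 fold changes were 1.51 for KLF4 and 1.56 for KLF7, with adjusted P values of 0.21 and 0.219 from limma, and neither was called. KLF7, which spans 99.7 kb of chromosome 2, thus remained the lowest of the 10 in both groups.

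KLF3, a repressor that binds CtBP and is itself a KLF1 target, was the steadiest of the well-expressed members in the deposited values. It was at 14.6 and 13.9 FPKM in control and at 11.2 and 11.1 FPKM after treatment. The groups did not overlap, and the replicates of each group were close. The log2 fold change of -0.35 (SE 0.055, adjusted P = 0.00646, limma) is larger than the spread between libraries and under the fold threshold. KLF3 (ENSG00000109787) has 6 exons over 37.3 kb of chromosome 4.

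KLF10 and KLF11 are close relatives, first described as genes that TGF-beta induces, and both repress through Sin3. KLF10 was at 4.23 and 3.25 FPKM in control and at 24.9 and 24.7 FPKM with GNE-987, on 390 and 288 reads against 834 and 874. Both GNE-987 libraries were well above both control libraries. The group means were 3.74 ± 0.692 FPKM (SD, n = 2) for control and 24.8 ± 0.129 FPKM (SD, n = 2) for GNE-987, and the log2 fold change was 2.71 (SE 0.14, adjusted P = 0.000406, limma). KLF10 was less extreme than KLF6, since 19.6% of tested genes had a higher log2 fold change. The call was lost with scaling to GAPDH, where the log2 fold change was 0.88 (adjusted P = 0.014, limma), under the fold threshold. KLF10 (ENSG00000155090) is on chromosome 8, minus strand, from 102648784 to 102655725 and has 4 exons.

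KLF11 was at 3.44 and 2.84 FPKM in control and at 4.61 and 5.23 FPKM with GNE-987, without overlap. The log2 fold change was 0.64 (SE 0.14, adjusted P = 0.0166, limma), and KLF11 was not called. KLF10 and KLF11 were alike in control, where the ratio of KLF10 to KLF11 was 1.23 and 1.15 in the libraries. With GNE-987 this ratio was 5.40 and 4.73. A ratio within a library is not changed by scaling each library by a single factor, though quantile normalization can change it.

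KLF13, a repressor and activator of promoters such as that of CCL5 in T cells, was the member called lower. It was at 3.30 and 3.06 FPKM in control and at 0.598 and 0.650 FPKM with GNE-987, on 714 and 637 reads against 47 and 54. Both GNE-987 libraries were far below both control libraries. The group means were 3.18 ± 0.166 FPKM (SD, n = 2) for control and 0.624 ± 0.0373 FPKM (SD, n = 2) for GNE-987, and the log2 fold change was -2.18 (SE 0.14, adjusted P = 0.000574, limma). From the lowest log2 fold change up, KLF13 stood at rank 1157 of the 16668 tested genes. KLF13 (ENSG00000169926) lies on the plus strand of chromosome 15 from 31326835 to 31435665, and its 2 exons span 108.8 kb.

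KLF9, the closest relative of KLF13 among the members and a gene that glucocorticoid and thyroid hormone induce, was at 3.30 and 3.07 FPKM in control and at 5.52 and 4.95 FPKM after treatment. The log2 fold change was 0.70 (SE 0.10, adjusted P = 0.00489, limma), under the fold threshold. The ratio of KLF9 to KLF13 was 1.00 in each control library and 9.25 and 7.61 with GNE-987. KLF16, another Sin3-binding repressor, was the most abundant member in control, at 25.1 and 22.0 FPKM, and was at 40.2 and 38.8 FPKM with GNE-987. Its log2 fold change was 0.75 (SE 0.082, adjusted P = 0.00219, limma), and it was not called. KLF16 (ENSG00000129911) has 2 exons over 11.2 kb of chromosome 19.

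The scaling between libraries decided the direction of the members with small differences. The deposited values were scaled to 1.19 and 1.16 times the reads on genes in control and to 0.679 and 0.689 times in the GNE-987 libraries. Scaling to the reads on genes moved the median log2 fold change of all tested genes by -0.74, scaling to an equal sum of FPKM (TPM) by -1.40, scaling to GAPDH by -1.77 and quantile normalization by -0.42. Under these scalings KLF6 stayed between 3.90 and 5.18, KLF10 between 0.88 and 2.57 and KLF13 between -3.84 and -2.89. KLF9, KLF11 and KLF16 changed sign with 3 of the 4, with values of -0.06, -0.12 and -0.03 by reads on genes, so the deposited values do not fix their direction. KLF3 was called lower by reads on genes (-1.12), TPM (-1.81) and GAPDH (-2.19). KLF2, which passed the filter only through its control libraries, was called lower with all 4.

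The distance of a member from the median of all tested genes is nearly fixed under GAPDH, TPM and reads on genes, which move each gene of a library by one factor, so only quantile normalization could move it much. KLF6 lay between 5.43 and 5.55 above that median over the deposited and the 4 other scalings, and KLF10 between 2.47 and 2.81 above it. KLF9, KLF11 and KLF16 lay between 0.42 and 0.88 above it. Relative to it, KLF3 lay between -0.59 and -0.17, KLF2 between -2.18 and -0.84, and KLF13 between -3.37 and -2.25.

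**Figure D2:**
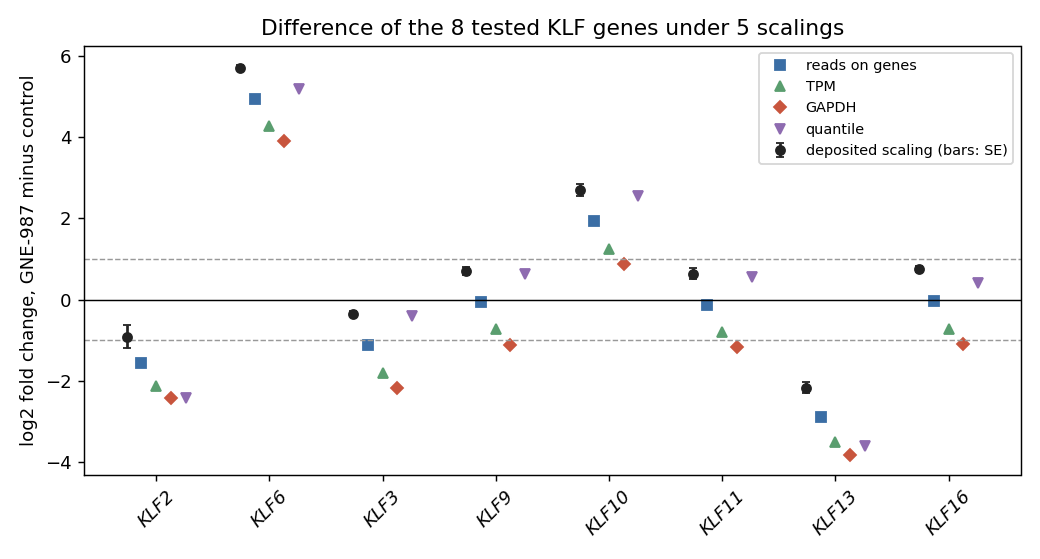
Log2 fold change, GNE-987 minus control, of the 8 tested KLF genes with the deposited scaling (black, bars are the SE) and with 4 other scalings; dashed lines mark a fold change of 2 in each direction. KLF6 lies above the upper line and KLF13 below the lower line with each scaling shown, KLF10 slips under the upper line with GAPDH, and KLF9, KLF11 and KLF16 cross 0.

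The make-up of KLF RNA within each library, which scaling by a single factor per library does not change, was turned over. Of the summed FPKM of 18 KLF genes, KLF1 held 58.9% and 61.6% in control and 11.8% and 11.1% with GNE-987. KLF6 held 1.38% and 1.47% in control and 49.2% in each GNE-987 library. KLF10 went from 2.92% and 2.33% to 10.7% and 11.1%, and KLF13 from 2.28% and 2.20% to 0.257% and 0.291%. KLF16 held 17.3% and 15.8% in control and 17.3% and 17.4% with GNE-987, and KLF9 held 2.28% and 2.20% against 2.38% and 2.21%. These like shares depend on KLF1 being in the sum. Of the summed FPKM of the 10 members alone, KLF16 held 44.2% and 42.9% in control and 19.9% and 19.8% with GNE-987, and KLF9 held 5.82% and 5.99% against 2.73% and 2.52%, while KLF6 held 3.519% and 3.999% against 56.4% and 55.9%. KLF3 held 25.68% and 27.18% of this sum of 10 in control and 5.549% and 5.635% with GNE-987. Of the sum of 18, KLF3 held 10.1% and 9.99% in control and 4.83% and 4.96% with GNE-987. With 2 libraries against 2, the smallest two-sided P value of an exact permutation test is 0.333, so these shares are descriptions.

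**Figure D3:**
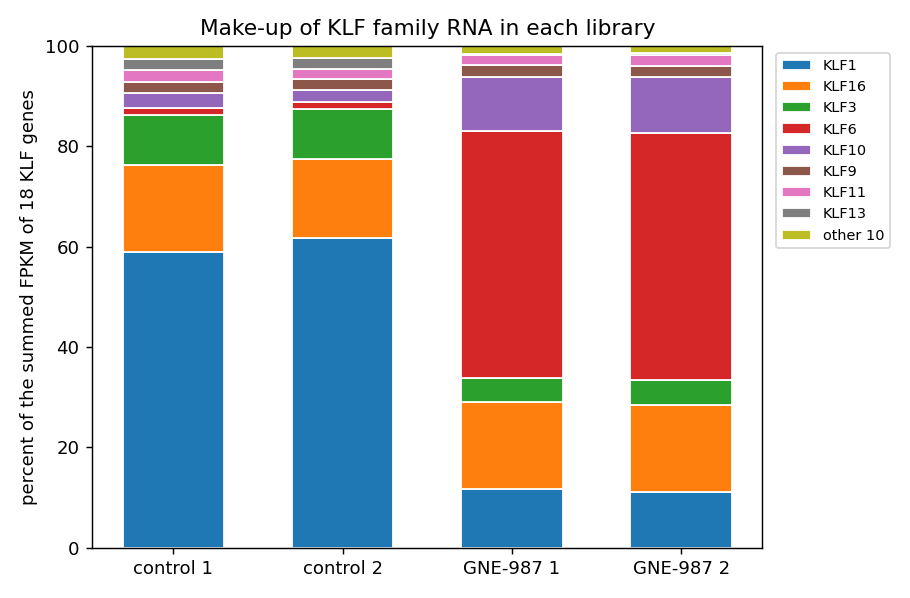
Percent of the summed FPKM of 18 KLF genes that each gene holds in each library, as stacked bars from 0 to 100; the 10 genes of low level are drawn together. KLF1 (bottom) holds most of the control bars and KLF6 the largest part of the GNE-987 bars, while KLF16 holds about the same part of all 4 in this sum with KLF1, and a smaller part with GNE-987 when the 10 members alone are summed.

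Among the 8 other KLF genes, 3 were tested, 1 was higher and 2 lower (33.6% and 24.9% over all tested genes). KLF5 passed the filter only through its GNE-987 libraries and KLF15 only through its control libraries, so these genes had to differ to be tested. KLF1, the erythroid activator, fell from 85.2 and 85.9 FPKM to 27.3 and 24.8 FPKM, a log2 fold change of -1.71 (SE 0.062). KLF15, a factor of metabolic tissues, fell from 2.58 and 1.92 FPKM to 0.0840 and 0.159 FPKM, which is 2 and 4 reads. KLF5, an activator of epithelial growth genes, rose from 0.212 and 0.209 FPKM to 2.46 and 1.54 FPKM. KLF8 and KLF18 were listed at 0 in each library. The related SP factors, which bind GC boxes too, held 5 tested genes of 9. SP6, which passed the filter only through its GNE-987 libraries, rose from 0.203 and 0.144 FPKM to 4.08 and 4.20 FPKM, SP3 was called lower at -1.08, and SP1, SP2 and SP4 were at -0.36, -0.49 and 0.36 and not called. The calls of KLF1, KLF5, KLF15 and SP6 were the same under all 17 alternatives, and that of SP3 under 15. With scaling to GAPDH or TPM, 4 of the 5 SP genes were called lower, SP4 among them. These scalings called 9738 and 8751 of all 16668 tested genes lower.

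Of the corepressors of KLF proteins, 9 of 10 were tested, 4 were lower and none higher, where 24.9% of all tested genes were lower and 33.6% higher. These 4 belong to the Sin3 complex that KLF9, KLF10, KLF11, KLF13 and KLF16 bind, and were SAP30 (log2 fold change -2.09), SIN3B (-1.69), SUDS3 (-1.47) and the deacetylase HDAC2 (-1.23). SIN3A, which like SIN3B is a scaffold of the complex, was at 4.57 and 4.72 FPKM in control and at 4.49 and 4.58 FPKM with GNE-987, and its groups overlapped. SAP18 and HDAC1, also parts of the complex, were at 0.15 and 0.28 and not called. CTBP1, the partner of KLF3, was at 13.48 and 15 FPKM against 8.14 and 8.20 FPKM, a log2 fold change of -0.79 that was not called. The median of the tested corepressors was -0.79, against 0.17 over all tested genes. With scaling to GAPDH or to TPM, all 9 were called lower. Of all 16668 tested genes, 9738 were lower with GAPDH and 8751 with TPM.

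The 4 coactivators (EP300, CREBBP, KAT2A, KAT2B) were tested and none was called in the deposited values, where their median was -0.28. Over all tested genes 33.6% were called higher and 24.9% lower in these values. The coactivator values ran from -0.98 for CREBBP to -0.16 for KAT2A, and all 4 were called lower with scaling to GAPDH or to TPM. These scalings called 9738 and 8751 of all 16668 tested genes lower. Among 5 ubiquitin ligases that act on KLF proteins, all 5 tested, 1 was called higher and 1 lower (33.6% and 24.9% over all tested genes). FBXW7 rose from 1.22 and 1.25 FPKM to 2.83 and 3.17 FPKM. VHL, also the ligase that GNE-987 engages, fell from 22.4 and 23.2 FPKM to 8.15 and 7.23 FPKM. The call of FBXW7 was lost with each of the 4 other scalings, and with scaling to GAPDH or TPM its sign was negative.

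The list of the ERK5-MEF2 kinase pathway, which induces KLF2 and KLF4, and of the cerebral cavernous malformation (CCM) proteins, which restrain it, held 12 genes, of which 9 were tested, 4 were lower and none higher (24.9% and 33.6% over all tested genes). KRIT1 and PDCD10, of the CCM proteins, had log2 fold changes of -2.28 and -1.84. KRIT1 passed the filter only through its control libraries. MEF2C, which binds the MEF2 core, and MAP2K5, the kinase above ERK5, had -1.56 and -1.48. CCM2 and MEF2D, at 0.22 and 0.55, were not called, and MEF2A was listed at 0 in each library. All 9 were called lower with scaling to GAPDH, where 9738 of all 16668 tested genes were. The genes called lower thus stood on both sides of the pathway, beside the KLF2 values given above.

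Of 12 TGF-beta and SMAD genes, 11 were tested, 1 was higher and 2 were lower (33.6% and 24.9% over all tested genes). SMAD6, which inhibits BMP signalling, rose from 0.583 and 0.539 FPKM to 3.30 and 2.79 FPKM. TGIF2, a corepressor of SMAD proteins, fell from 5.18 and 5.34 FPKM to 0.443 and 0.539 FPKM, and SMAD3 was called lower at -1.16. TGIF2 passed the filter only through its control libraries. SMAD2, a receptor-activated SMAD like SMAD3, was at -0.17 and not called. TGFB1, the ligand known to induce KLF10, was at 66.4 and 58.1 FPKM in control and at 73.6 and 80.5 FPKM with GNE-987, a log2 fold change of 0.31 that was not called. SMAD6 lost its call with scaling to GAPDH (0.54) and TPM (0.89). The median of the list was -0.17, and 8 of the 11 genes were called lower with scaling to GAPDH or TPM. Those scalings called 9738 and 8751 of all 16668 tested genes lower.

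Textbook targets of KLF proteins numbered 16, of which 9 were tested, 5 were higher and none lower, with a median of 1.79. Over all tested genes 33.6% were higher and 24.9% lower, with a median of 0.17. CCL5 and LGALS3 passed the filter only through their GNE-987 libraries, so the count and the median of this list are no measure of its direction, and the list was chosen with earlier results known. The cell cycle inhibitor CDKN1A, a target of KLF4 and KLF6, rose from 0.812 and 0.548 FPKM to 70.0 and 71.9 FPKM, a log2 fold change of 6.53 (SE 0.19, adjusted P = 0.000167, limma). CCL5, the chemokine gene bound by KLF13, rose from 0 and 0.0897 FPKM to 4.67 and 5.47 FPKM, on 0 and 3 reads against 59 and 73. LGALS3 rose at 3.31, the inhibitor CDKN1B at 2.23 and the thrombomodulin gene THBD, a KLF2 target, at 1.79. CDKN1A, CCL5 and LGALS3 were called higher under all 17 alternatives, while CDKN1B and THBD lost their calls with scaling to GAPDH and TPM. Of the 9, 3 were then called lower with GAPDH and 2 with TPM. Among all 16668 tested genes, 9738 were lower with GAPDH and 8751 with TPM. NOS3, another KLF2 target, was at -0.87 and not called, and S1PR1, a KLF2-dependent gene of lymphocyte traffic, was under the filter. The list was written from general knowledge of the family and not from binding in these cells.

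**Figure D4:**
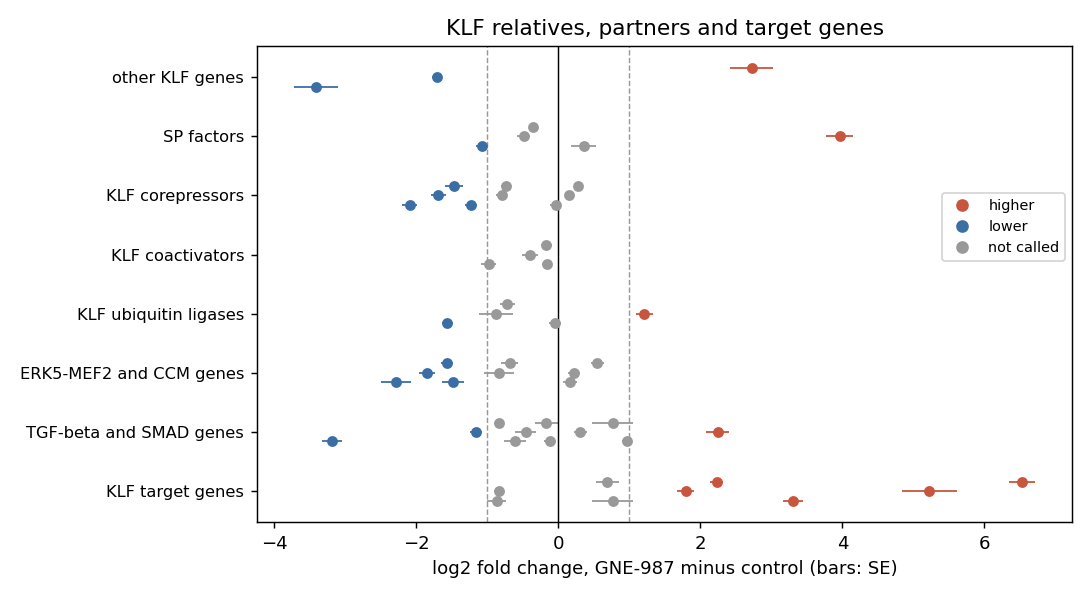
Log2 fold change, GNE-987 minus control, of each tested gene of 8 lists of KLF relatives, partners, upstream genes and targets; bars are the SE, colours give the call in the deposited values and dashed lines mark a fold change of 2. The corepressor and ERK5-MEF2 rows each hold 9 tested genes, 4 lower and none higher, and the target row holds 9, 5 higher and none lower. Over all tested genes 33.6% were higher and 24.9% lower. Some genes passed the filter only through the group where they are high, among them KRIT1, CCL5 and LGALS3, so they had to differ. SMAD7 and TGFBR1 stand in 2 rows.

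The label NB4 was checked against markers. In control, the promyelocyte gene MPO was at 0.0246 and 0 FPKM, ELANE and CTSG were at 0, and the 9 promyelocyte and granule genes summed to 10.9 and 9.59 FPKM, of which SPI1 held most. The 10 erythroid genes summed to 444.2 and 422.0 FPKM in control, with GATA1 at 123.8 and 121.8 FPKM. The control values thus go against the label, and the cells are named by it only as labelled. Several marker lists moved beside the KLF genes. GATA1 fell to 15.1 and 12.5 FPKM, while the erythroid sum was 790.1 and 676.1 FPKM with GNE-987. Of the 10 erythroid genes, 5 were called higher and 4 lower (33.6% and 24.9% over all tested genes). These marker calls are from the deposited values only. The 4 monocyte genes summed to 2.14 and 1.81 FPKM in control and to 57.8 and 60.9 FPKM with GNE-987, of which CD14 held most and LYZ, at 2.02 and 1.59 FPKM in control, 6.51 and 7.64 FPKM, with CSF1R near 1 FPKM and CD68 near 0. The 3 B lymphoid genes went from 0.936 and 0.950 to 23.7 and 22.1 FPKM, nearly all CD79A, the 4 megakaryocyte genes from 1.39 and 1.41 to 6.33 and 7.44 FPKM, with PF4 at 0, and the 4 T lymphoid genes from 18.1 and 17.0 to 21.2 and 21.8 FPKM, with CD2 at 0. The promyelocyte sum with GNE-987 was 32.3 and 29.6 FPKM, with MPO at 11.8 and 11.3 FPKM. The part of these changes in the KLF values was not tested.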

How the data were processed

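The authors prepared libraries with an Illumina TruSeq kit from Trizol RNA, filtered the reads, mapped them with HISAT (HISAT2 2.0.5 and hg38 in the submitters' processing notes) and used DESeq2 for differential expression. The deposited unit is FPKM, with a value for each gene in each of the libraries. The counting program, its annotation and its use of strand are not given in the sources used here. Because the values are FPKM, limma 3.58.1 in R 4.3.3 with an intensity trend on log2(FPKM + 0.1) was used in place of a count test, with the study's thresholds and no replicate block. Whole reads were worked back from the smallest steps in FPKM (tolerance 0.01 of a read). At GENCODE release 44 lengths, 53.0% of genes above 0 came out whole, KLF6 among them, and the rest, including the other 9 members, at another length, which makes their reads less certain. The fit was tested on simulated data. All members were named, list genes by size among those called, up to 4, or to give a count, and neighbours by distance and level. Genes given as not called, and KLF target genes beyond 4, were added to complete the counts. The members and lists were chosen with earlier results of these data known. Alternatives were scaling to GAPDH, to an equal sum (TPM), by median ratio and by quantiles, pseudocounts (1 and 0.01), filters (none, or 1 FPKM), thresholds (adjusted P, or limma's test against a 2-fold change), a replicate block and leaving out each library. Scaling to reads on genes and limma-voom on the recovered reads were added after seeing the data.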

Additional observations from a re-analysis of the deposited data

How the results depend on the processing

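KLF6 was called higher and KLF13 lower under all 17 alternatives. With each of the 4 libraries left out in turn, where the lone library of a group is assumed to vary like the other group, the log2 fold changes were 5.70 to 5.75 for KLF6, 2.52 to 2.89 for KLF10 and -2.23 to -2.13 for KLF13, and each kept its call. The largest adjusted P values from limma under any alternative were 0.00348, 0.0283 and 0.0171.

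Scaling moved most of the other values. With GAPDH, 1 member was higher and 6 lower, the members' median was -1.14, and the log2 fold changes were -2.44 for KLF2, -2.19 for KLF3, -1.11 for KLF9, 0.88 for KLF10, -1.17 for KLF11 and -1.10 for KLF16. With TPM, 3 members were lower, the median was -0.77, and the values were -2.13 for KLF2, -1.81 for KLF3, -0.74 for KLF9, -0.80 for KLF11 and -0.72 for KLF16. With reads on genes, 3 members were lower, the median was -0.093, and the values were -1.56 for KLF2, -1.12 for KLF3, -0.063 for KLF9, -0.12 for KLF11 and -0.028 for KLF16. With limma-voom on the recovered reads, 3 members were lower, the median was -0.094, and the values were -1.78, -1.13, -0.064, -0.12 and -0.028 for the same genes. Quantile normalization gave 2 lower members, a median of 0.49 and -2.42 for KLF2. A pseudocount of 0.01 gave 2 lower members, with KLF2 at -1.06, and a pseudocount of 1 gave a median of 0.55, with KLF2 at -0.39 and KLF13 at -1.36, its weakest value.

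Among the tested ones of the 74 genes on the 8 lists, 9 were higher and 14 lower in the deposited values. Genes under the filter could not be called, so 74 is not the base for a share to set beside all tested genes. Over all tested genes, 33.6% were higher and 24.9% lower in these values. The higher ones numbered 5 with GAPDH and 5 with TPM, and the lower ones 42 with GAPDH, 40 with TPM, 24 with quantile normalization, 28 with reads on genes and 28 with limma-voom. Over all tested genes, GAPDH gave 3031 higher and 9738 lower, TPM 3320 and 8751, and 6656 were lower with reads on genes and 6772 with limma-voom. Median-ratio scaling left each value as it was, since the deposited values already have that scaling. Scaling to GAPDH, TPM or reads on genes moves all genes of a library by one factor. The cause of the other moves was not tested.

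Across genes, the deviations of same-numbered libraries from their group means had r = 0.0054, so no shared deviation was seen. This cannot tell whether same-numbered libraries were handled together, which the sample titles do not say. With the replicate number as a block, 2 members were higher and 1 lower and 5667 and 4186 of all genes were called. DESeq2 was not run on FPKM. In the GNE-987 libraries, 7 and 6 reads of KLF2 and fewer than 30 of KLF4 and KLF7 in each library limit the precision for these 3 genes.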

Other observations

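Of 17 annotated genes that overlap a member or lie within 10 kb of one, 5 had a mean of at least 0.5 FPKM. REXO1, 3.92 kb past the 3′ end of KLF16 on the same strand, was at 18.7 and 18.1 FPKM in control and at 4.41 and 5.13 FPKM with GNE-987, and was called lower at -1.93 while KLF16 was at 0.75. ENSG00000283959, a long noncoding RNA gene that starts 0.52 kb before the 5′ end of KLF10 on the opposite strand, was at 0 and 0.0212 FPKM in control and at 1.35 and 1.06 FPKM with GNE-987, which is 0 and 2 reads against 48 and 40, and was called higher. This noncoding gene passed the filter only through its GNE-987 libraries, so it had to be higher there to be tested. ENSG00000267141 overlaps KLF16 on the opposite strand and was at 3.29 and 3.72 FPKM in control and at 6.70 and 5.60 FPKM with GNE-987. Since the use of strand in counting is not stated, reads of this gene and of KLF16 could not be told apart where they overlap. ENSG00000260077, 2.19 kb before the 5′ end of KLF11, was at 1.22 and 0.834 FPKM against 1.60 and 1.95 FPKM. ENSG00000228353, 7.25 kb past the 3′ end of KLF6, was at 0 and 1.44 FPKM against 0.764 and 2.17 FPKM, on at most 10 reads, and its groups overlapped although KLF6 rose.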
